A study of Homo sapiens with 30 samples.

Results

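Depletion of the NELF-E subunit was compared with depletion of the NELF-C subunit in T47D, an established cell line from a human breast cancer of luminal, hormone receptor-positive type. The comparison covers every transcript cluster of the gene-level exon array table, 22011 in all, on 6 of its 15 arrays. The 3 arrays of cells given siRNA against NELF-E (siNELF-E) were set against the 3 arrays of cells given siRNA against NELF-C (siNELF-C). The 3 arrays of cells given a control siRNA against luciferase took no part in the contrast, and their levels are shown beside it as a description. All groups received siRNA at 10 nM, had their medium renewed after 48 hours and were harvested after another 48 hours. The series describes the repeats of a group as technical, so every p-value measures the spread between repeats and not between separate cultures, and a difference between the siRNAs cannot be told apart from a difference between the cultures that received them. Each group is 1 siRNA treatment of 1 cell line.

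NELF, the negative elongation factor, binds RNA polymerase II soon after initiation and holds it near the promoter together with DSIF, until the kinase P-TEFb releases it. NELF-C pairs with NELF-A, NELF-B links that pair to NELF-E, and NELF-E carries an RNA recognition motif. NELF-C and NELF-D are forms of one protein made from the gene NELFCD. Loss of one subunit is known to lower the protein level of the others in several cell lines, so a comparison of knockdowns asks whether cells depleted of different subunits of one complex reach the same expression state.

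The targets were examined first. NELFE has no transcript cluster with a symbol of its own and was measured as the median of its 15 exon-level probe sets, on the same log2 scale. It read 4.66, 4.70 and 4.60 in siNELF-E cells, 6.94, 6.65 and 6.71 in siNELF-C cells and 7.29, 7.22 and 7.27 in control cells. NELFE was thus lowest under its own siRNA, by 2.12 on the log2 scale or 4.34-fold relative to siNELF-C (SE 0.154, limma adjusted p = 0.000325). NELFCD (transcript cluster 3891278) read 9.71, 9.55 and 9.67 in siNELF-E cells, 5.92, 5.61 and 5.97 in siNELF-C cells and 9.33, 9.19 and 9.23 in control cells. It was the gene with the largest positive difference, 3.81 on the log2 scale or 14-fold (SE 0.125, limma adjusted p = 0.000185), and 25 of its 26 probe sets were higher in siNELF-E cells. Both targets therefore match their labels. NELFA, the median of 15 probe sets, averaged 6.34 ± 0.24 in siNELF-E cells and 6.31 ± 0.12 in siNELF-C cells (SD, n = 3 each), a difference of 0.03 that did not pass (limma adjusted p = 0.93) and whose sign changed with the scaling. NELFB was not analysed here.

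**Figure D1:**
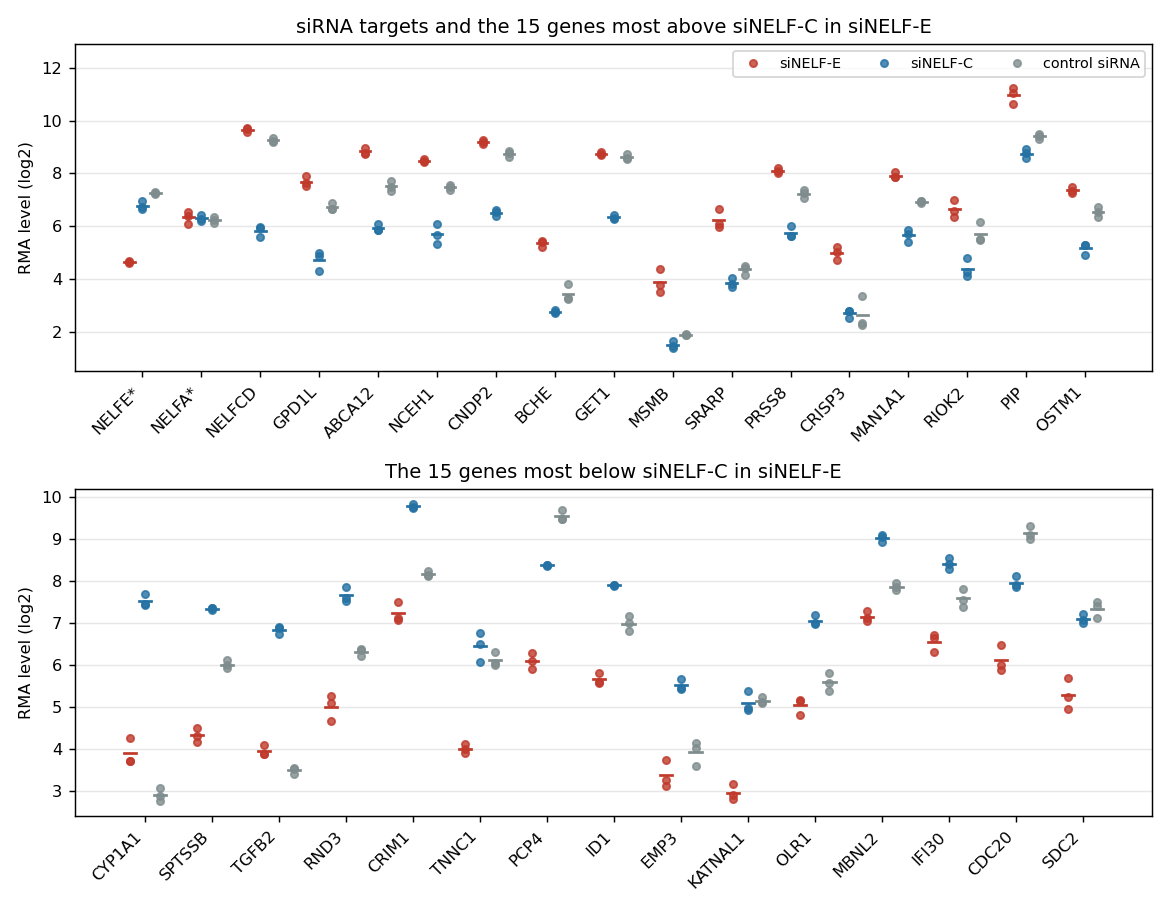
Log2 RMA level on each array (points) with the group mean (bar) for siNELF-E, siNELF-C and control siRNA, 3 arrays each. The upper panel holds NELFE and NELFA, starred because they are medians of exon-level probe sets, and the 15 genes most above siNELF-C in siNELF-E cells, led by NELFCD at 9.64 against 5.83; the lower panel holds the 15 genes most below it, led by CYP1A1 at 3.90 against 7.52.

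Across all clusters the knockdowns differed widely. Calls required a difference of at least 1.5-fold and a p-value below 0.05 after Benjamini-Hochberg adjustment over the 22011 clusters. In siNELF-E cells 2098 clusters (9.53%) were called higher and 688 (3.13%) lower than in siNELF-C cells, 12.7% in either direction, and 689 and 218 of these differed by at least 2-fold. On every called cluster the 3 arrays of one group lay beyond the 3 of the other, as they did on 39.8% of all clusters. The balance of the directions depended on how the arrays were scaled. Log2 levels had interquartile ranges of 3.889 to 4.007 in siNELF-E, 3.615 to 3.747 in siNELF-C and 3.954 to 4.123 in control arrays, so the values spanned a narrower range in siNELF-C. Of the calls 75.3% were higher on the deposited values, 58.6% after quantile normalization and 39.1% with arrays centred on their 75th percentiles. The counts were 1450 higher (6.59% of clusters) and 1024 lower (4.65%) after quantile normalization, and 1167 (5.30%) and 1819 (8.26%) after that centring. The centring also moved the median of all clusters to -0.21, against 0.01 as deposited. When the arrays of all 5 siRNA groups shared one estimate of spread, 790 (3.59%) and 351 (1.59%) clusters were called, and the text gives the count of a gene group in that fit of 15 arrays where it moves by over 1.5 times. Signal from a cluster is not background-corrected against a blank here, so levels below 3.891, the 40th percentile of cluster means, are treated as low, and no fold is given where both groups lay under it. Of the genes given with a fold, SRARP, EMP3, KATNAL1, RIGI, DUSP6, TGFBR3, MLLT3, SPRED1 and SPRY2 had one group mean under it, so their folds are ratios to a value that was not shown to be above background.

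The control arrays place these differences. Of the clusters higher in siNELF-E cells, the control mean lay between the knockdowns for 1430 (68.2%), above both for 552 (26.3%) and below both for 116 (5.53%). Of those lower in siNELF-E cells, it lay between for 324 (47.1%), above both for 282 (41%) and below both for 82 (11.9%). These clusters were chosen for a difference between the knockdowns, which favours a control mean between them, and shares over all clusters were not taken. The placement was made on the deposited values only, where siNELF-C arrays spanned a narrower range than control arrays, and may change with scaling.

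Among the 15 genes most raised in siNELF-E cells relative to siNELF-C cells, after NELFCD, several encode lipid and membrane enzymes and secretory products. GPD1L, which resembles glycerol-3-phosphate dehydrogenase, read 7.64, 7.51 and 7.90 in siNELF-E cells, 4.87, 4.32 and 5.0 in siNELF-C cells and 6.66, 6.66 and 6.87 in control cells, a 7.75-fold difference (limma adjusted p = 0.000793). ABCA12, a lipid transporter, read 8.75, 8.79 and 8.95 in siNELF-E cells against 5.84, 5.85 and 6.08 in siNELF-C cells and 7.34, 7.50 and 7.71 in control cells, a 7.49-fold difference (0.000221). NCEH1, a hydrolase of neutral cholesterol esters, averaged 8.49 in siNELF-E cells, 5.70 in siNELF-C cells and 7.47 in control cells. For these 3 genes the control lay between the knockdowns, below siNELF-E and above siNELF-C.

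A second set differed chiefly through low levels in siNELF-C cells. CNDP2, a cytosolic dipeptidase, read 9.25, 9.10 and 9.18 in siNELF-E cells, 6.55, 6.37 and 6.63 in siNELF-C cells and 8.84, 8.63 and 8.77 in control cells (6.31-fold, limma adjusted p = 0.000221). GET1, a receptor for insertion of tail-anchored proteins into the endoplasmic reticulum membrane, read 8.75, 8.80 and 8.70 in siNELF-E cells, 6.29, 6.33 and 6.42 in siNELF-C cells and 8.58, 8.55 and 8.72 in control cells (5.28-fold, 0.00021). In both genes siNELF-E cells were close to control and siNELF-C cells lay over 2 log2 units lower. All 20 probe sets of CNDP2 and all 7 of GET1 were higher in siNELF-E cells. RIOK2, a kinase of 40S ribosome maturation, and OSTM1, a lysosomal membrane protein, were also higher, 4.77-fold and 4.58-fold, with control between the knockdowns.

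The remaining genes of that group stood above control in siNELF-E cells. PIP, the prolactin-induced secreted protein of apocrine and luminal breast cells, read 10.62, 11.24 and 11.04 in siNELF-E cells, 8.76, 8.57 and 8.92 in siNELF-C cells and 9.31, 9.50 and 9.42 in control cells (4.64-fold, limma adjusted p = 0.00125). SRARP, a steroid receptor-associated protein of luminal breast cells, averaged 6.23 in siNELF-E cells, 3.85 in siNELF-C cells and 4.36 in control cells (5.21-fold). BCHE, butyrylcholinesterase, averaged 5.35 in siNELF-E cells, 2.77 in siNELF-C cells and 3.44 in control cells (limma adjusted p = 0.000221). MSMB and CRISP3, secreted proteins of mucosal and glandular tissue, averaged 3.89 and 4.99 in siNELF-E cells, 1.49 and 2.70 in siNELF-C cells and 1.88 and 2.64 in control cells. All 3 genes were called higher but lay under 3.891 in siNELF-C and control cells, so no fold is given, and MSMB was near that level in siNELF-E cells too (3.51, 4.38 and 3.79). PRSS8, an epithelial membrane serine protease, and MAN1A1, a Golgi mannosidase, were 5.04-fold and 4.78-fold higher, with control between the knockdowns.

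In the other direction the largest difference was in CYP1A1, the cytochrome P450 that is the classical target of the aryl hydrocarbon receptor. It read 4.26, 3.71 and 3.71 in siNELF-E cells, 7.68, 7.46 and 7.43 in siNELF-C cells and 3.06, 2.89 and 2.75 in control cells. It was 12.4-fold lower in siNELF-E cells than in siNELF-C cells (log2 difference -3.63, SE 0.176, limma adjusted p = 0.000443), and all 11 of its probe sets were lower. TGFB2, a ligand of the TGF-beta family, had the same order of groups, with 4.10, 3.87 and 3.87 in siNELF-E cells, 6.87, 6.75 and 6.91 in siNELF-C cells and 3.55, 3.41 and 3.53 in control cells (7.46-fold lower, 0.00021). For both genes siNELF-C stood far above control. The siNELF-E arrays read above control too, by less and without overlap, with means of 3.90 in siNELF-E and 2.90 in control cells for CYP1A1 and 3.95 and 3.50 for TGFB2. The control means lay under 3.891 and the siNELF-E means only just above it, with replicates 2 and 3 under it in both genes. A rise over control in siNELF-E cells was therefore not shown to be above background. The folds of both genes are ratios to values near that level.

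Several other genes lay above control in siNELF-C cells and below it in siNELF-E cells. SPTSSB, a small activating subunit of serine palmitoyltransferase, read 4.17, 4.51 and 4.32 in siNELF-E cells, 7.35, 7.36 and 7.31 in siNELF-C cells and 5.99, 5.92 and 6.11 in control cells (8.04-fold lower, limma adjusted p = 0.00021). CRIM1, a transmembrane protein that binds BMPs, was 5.85-fold lower, and ID1, a helix-loop-helix inhibitor induced by BMP and TGF-beta signals, read 5.57, 5.81 and 5.60 in siNELF-E cells, 7.91, 7.88 and 7.90 in siNELF-C cells and 7.16, 6.80 and 6.99 in control cells (4.71-fold lower). EMP3, OLR1, the splicing regulator MBNL2 and the lysosomal thiol reductase IFI30 had the same order of means and were 3.63- to 4.43-fold lower.

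Others lay at or below control in both knockdowns, or near control in siNELF-C cells and below it in siNELF-E cells. PCP4, a calmodulin regulator, averaged 6.09 in siNELF-E cells, 8.38 in siNELF-C cells and 9.54 in control cells (4.86-fold lower). KATNAL1, a microtubule-severing protein, averaged 2.96 in siNELF-E cells, 5.09 in siNELF-C cells and 5.15 in control cells (4.39-fold lower). TNNC1 (5.41-fold) and the heparan sulphate proteoglycan SDC2 (3.49-fold) were lower as well.

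Genes of mitosis were lower in siNELF-E cells. Of 40 measured members of that list, 23 were called lower and 0 higher, where 3.13% and 9.53% of all clusters were called, and the median difference was -0.85 against 0.01 over all clusters. The largest was CDC20, the activator of the anaphase-promoting complex, with 5.88, 6.48 and 6.00 in siNELF-E cells, 8.11, 7.86 and 7.91 in siNELF-C cells and 9.31, 9.10 and 9.0 in control cells (3.57-fold lower, limma adjusted p = 0.00177). PLK1, a kinase of mitotic entry and spindle assembly, read 6.57, 6.82 and 6.89 in siNELF-E cells, 8.17, 8.15 and 8.13 in siNELF-C cells and 9.40, 9.02 and 9.07 in control cells (2.62-fold lower, 0.00112). In both genes the 3 groups were separate and siNELF-C lay between siNELF-E and control. TOP2A, which decatenates sister chromatids, was 2.72-fold lower. FOXM1, a transcription factor of late cell cycle genes, was 2.42-fold lower, and PTTG1, securin, was 2.27-fold lower. PBK, a mitotic kinase, was 2.21-fold lower but lost its call without siNELF-E replicate 3 (adjusted p = 0.0556) and without siNELF-C replicate 1, 2 or 3 (0.0616, 0.0502 and 0.0542). CCNB2, cyclin B2, averaged 5.97 in siNELF-E cells, 7.11 in siNELF-C cells and 8.58 in control cells. Not every mitotic gene was called lower. ECT2, an exchange factor of cytokinesis, measured 0.52 (adjusted p = 0.0982), BUB3, of the spindle checkpoint, measured -0.28 (0.092), and the kinesin KIF11 measured -0.12 (0.735), with intervals at 95% of 0.08 to 0.97 for ECT2 and -0.51 to -0.05 for BUB3. In the fit of 15 arrays 12 members were called lower, and after quantile normalization 27.

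The median of the mitosis list, as a difference from the mean of the control arrays, was -2.41, -2.03 and -2.05 on the siNELF-E arrays and -1.32, -1.47 and -1.21 on the siNELF-C arrays. The arrays of the groups did not overlap. Fewer dividing cells and less of each transcript per cell cannot be told apart in these bulk RNA samples.

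Promoters of 32 of the 40 members were found in the RefSeq promoter table (build GRCh38.p14, 250 bases before to 50 after the gene start). They are shown because late cell cycle genes are known for a promoter pair of the cell cycle genes homology region, CHR (TTTGAA), and the CCAAT box (CCAAT), which the DREAM complex, MYB-MuvB and NF-Y read. Both motifs were searched on both strands, and a CHR and a CCAAT box can share a base. The CHR was found in 23 of the 32 promoters (71.9%) against 15.4% of all 27305 promoters, the CCAAT box in 27 (84.4%) against 35.7%, and both in 21 (65.6%) against 6.08%. The xenobiotic response element core (GCGTG), searched likewise, was in 19 (59.4%) against 36.3%. Among promoters of the members called lower, 11 of 18 (61.1%) held the CHR and 17 of 18 (94.4%) the CCAAT box. Compared with all measured members, the CHR share was thus lower and the CCAAT share higher. The excess over all promoters belongs to the list of mitotic genes as such. Whether the motifs bear on the difference between the knockdowns was not tested. The promoters of CDC20 (chr1:43358731-43359030, plus strand), PLK1 (chr16:23678639-23678938, plus strand) and CCNB2 (chr15:59104896-59105195, plus strand) are given 5′ to 3′ with both motifs in capitals, as TTTGAA or TTCAAA and as CCAAT or ATTGG.
CDC20: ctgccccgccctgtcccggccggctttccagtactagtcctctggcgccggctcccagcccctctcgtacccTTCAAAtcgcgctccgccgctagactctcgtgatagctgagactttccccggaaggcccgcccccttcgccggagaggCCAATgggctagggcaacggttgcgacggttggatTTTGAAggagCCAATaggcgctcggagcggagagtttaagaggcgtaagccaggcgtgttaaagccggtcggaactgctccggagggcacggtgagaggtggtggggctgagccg
PLK1: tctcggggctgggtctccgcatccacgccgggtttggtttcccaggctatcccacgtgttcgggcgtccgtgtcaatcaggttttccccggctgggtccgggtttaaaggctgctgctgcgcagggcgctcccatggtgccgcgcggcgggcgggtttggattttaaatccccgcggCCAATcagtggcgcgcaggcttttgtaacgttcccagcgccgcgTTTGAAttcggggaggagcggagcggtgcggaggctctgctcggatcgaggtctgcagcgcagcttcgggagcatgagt
CCNB2: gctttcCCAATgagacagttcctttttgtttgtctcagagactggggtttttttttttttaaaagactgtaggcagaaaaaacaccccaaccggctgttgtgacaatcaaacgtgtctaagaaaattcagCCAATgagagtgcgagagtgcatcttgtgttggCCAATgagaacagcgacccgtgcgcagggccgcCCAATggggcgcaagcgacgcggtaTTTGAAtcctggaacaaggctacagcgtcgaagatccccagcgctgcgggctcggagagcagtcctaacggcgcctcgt
Counted from the gene start, with the first base of the motif named, the CHR lay at -65 and -178 in CDC20, at -29 in PLK1 and at -29 in CCNB2, and the nearest CCAAT box lay at -55, -73 and -54 in the same genes.

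**Figure D2:**
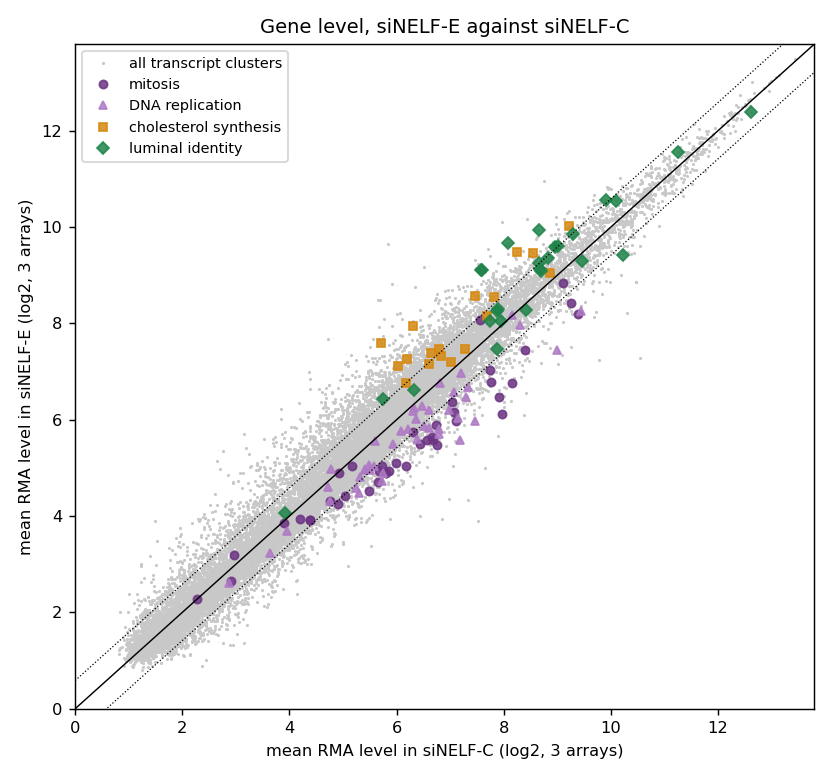
Mean log2 RMA level of every transcript cluster in siNELF-C (horizontal axis) and siNELF-E (vertical axis), 3 arrays each, with members of 4 gene lists marked. The solid line is equality and the dotted lines 1.5-fold; mitosis and DNA replication genes lie mostly below the line (medians -0.85 and -0.46) and cholesterol synthesis and luminal genes mostly above it (0.74 and 0.43).

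DNA replication genes were also lower in siNELF-E cells. Of 43 measured members, 17 (39.5%) were called lower and 0 higher, against 3.13% and 9.53% of all clusters. The median was -0.46, and 41 of 43 were negative. TYMS, thymidylate synthase, read 5.32, 5.82 and 5.61 in siNELF-E cells, 7.18, 7.10 and 7.27 in siNELF-C cells and 8.24, 7.78 and 7.88 in control cells (3.04-fold lower, limma adjusted p = 0.00151). TK1, thymidine kinase of S phase, read 7.26, 7.63 and 7.42 in siNELF-E cells, 9.0, 8.92 and 9.10 in siNELF-C cells and 10.03, 9.89 and 9.93 in control cells (2.96-fold lower, 0.0011). The groups were separate in both, in the same order as the mitotic genes. CDC6, which loads the MCM helicase, was 2.79-fold lower, the ribonucleotide reductase subunit RRM2 2.28-fold, and cyclin A2 (CCNA2) and the helicase subunit MCM5 2.16-fold each. RPA1, of the single-strand binding complex RPA, measured -0.33 (adjusted p = 0.0954). Only 8 members were called lower in the fit of 15 arrays.

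Histone genes that are transcribed in S phase were lower in part. Of 39 measured members, 10 (25.6%) were called lower and 2 (5.13%) higher, against 3.13% and 9.53% of all clusters (median -0.23). H2BC7, H2BC14, H2AC16 and H3C11 were 1.89- to 2.33-fold lower. H3C10 was 2.27-fold higher in siNELF-E cells, with 8.83, 9.01 and 9.04 against 7.67, 7.74 and 7.92 in siNELF-C cells and 8.19, 7.99 and 8.31 in control cells. Histone genes are near-identical copies, so probe sets may read more than one of them. In the fit of 15 arrays 3 were called lower and 1 higher. Of 17 genes of recombination repair, 2 (11.8%) were called lower and 1 (5.88%) higher, against the same 3.13% and 9.53%. NBN, of the MRN complex that senses double-strand breaks, was 2.16-fold higher. BRCA1 was 1.54-fold lower but fell short of 1.5-fold without siNELF-E replicate 1 or siNELF-C replicate 3 (-0.55 and -0.56), and 0 members of the list were called in the fit of 15 arrays. Members called lower numbered 1 without siNELF-E replicate 1 or 3 or siNELF-C replicate 1, and 0 without siNELF-C replicate 3.

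Genes of cholesterol synthesis and its control by SREBP were higher in siNELF-E cells. SREBP factors bind such genes when sterols in the endoplasmic reticulum are low, and INSIG1 retains SREBP there. All 18 measured members had positive differences, and the list median was 0.74. Of these members 12 (66.7%) were called higher and 0 lower, against 9.53% and 3.13% of all clusters. INSIG1 read 7.47, 7.56 and 7.74 in siNELF-E cells, 5.58, 5.68 and 5.87 in siNELF-C cells and 7.28, 7.19 and 7.40 in control cells (3.69-fold, limma adjusted p = 0.000775). HMGCS1, which makes HMG-CoA, read 7.87, 7.91 and 8.04 in siNELF-E cells, 6.25, 6.16 and 6.54 in siNELF-C cells and 7.44, 7.57 and 7.64 in control cells (3.08-fold, 0.0011). In both, siNELF-E lay just above control and siNELF-C well below it, with no overlap. SQLE, squalene epoxidase, was 2.35-fold higher, the sterol demethylase MSMO1 2.15-fold, the phosphatidate phosphatase LPIN1 2.13-fold and the sterol carrier STARD4 2.12-fold. DHCR7, IDI1, TM7SF2, NSDHL, FDPS and SREBF1 itself were called with log2 differences of 0.59 to 0.93. LSS, lanosterol synthase, measured 0.47 (adjusted p = 0.0216, under 1.5-fold), and EBP, PMVK and SC5D measured 0.18 to 0.20 and did not pass. Under quantile normalization, 75th percentile centring and the fit of 15 arrays 8 members were called higher in each case and 0 lower, and 6 and 0 with each array's interquartile range as a covariate. MSMO1 lost its call in the fit of 15 arrays (adjusted p = 0.162) and with the covariate (0.48, adjusted p = 0.0918).

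Against the mean of the control arrays the median of the cholesterol list was 0.29, 0.29 and 0.41 on the siNELF-E arrays and -0.53, -0.81 and -0.48 on the siNELF-C arrays. The knockdowns thus lay on opposite sides of control. Promoters of 17 of the 18 members were found in the RefSeq table, and 13 (76.5%) held a CCAAT box, against 35.7% of all promoters. NF-Y at such boxes is a known partner of SREBP. The excess was not particular to that motif, since GCGTG was also in 13 (76.5%), against 36.3% of all promoters. The HMGCS1 promoter (GRCh38.p14 chr5:43313363-43313662, minus strand) is given with its CCAAT boxes in capitals, as ATTGG on the strand shown.
HMGCS1: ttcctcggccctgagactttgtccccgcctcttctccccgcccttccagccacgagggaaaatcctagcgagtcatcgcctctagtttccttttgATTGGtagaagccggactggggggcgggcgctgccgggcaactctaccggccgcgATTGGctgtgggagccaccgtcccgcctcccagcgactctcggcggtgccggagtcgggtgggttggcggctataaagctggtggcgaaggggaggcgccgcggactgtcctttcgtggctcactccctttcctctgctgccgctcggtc

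**Figure D3:**
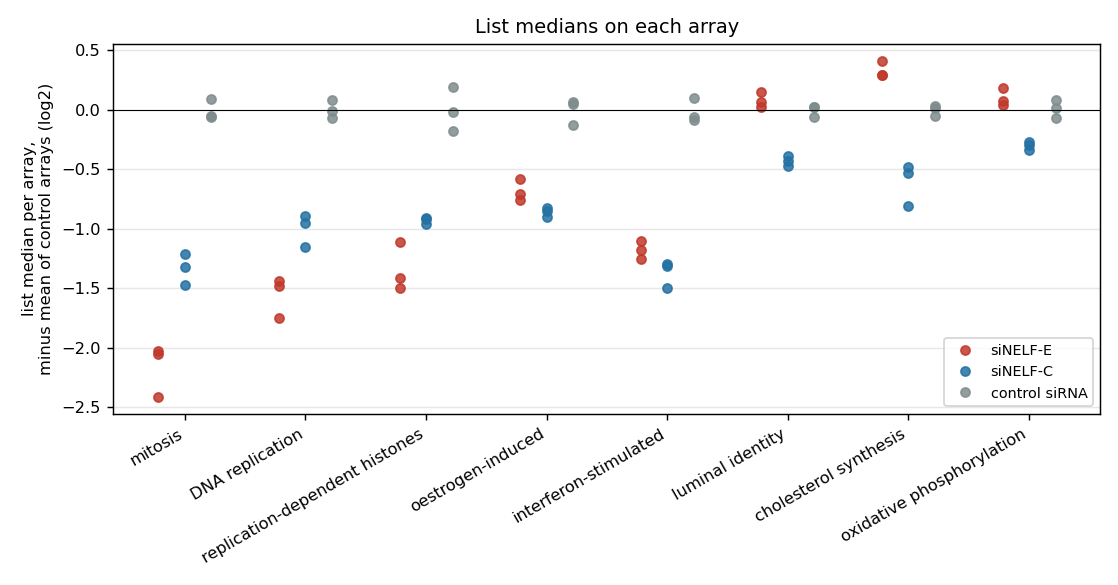
Median of each gene list on every array (points), after subtracting each gene's mean over the control arrays, in log2 units, for siNELF-E, siNELF-C and control siRNA. Mitosis lies at -2.41 to -2.03 in siNELF-E and -1.47 to -1.21 in siNELF-C; cholesterol synthesis lies at 0.29 to 0.41 in siNELF-E and -0.81 to -0.48 in siNELF-C.

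Genes of luminal breast identity were higher in siNELF-E cells for 9 of 26 measured members (34.6%) and lower for 1 (3.85%). Of all clusters 9.53% and 3.13% were so called, and the list median was 0.43. CLDN4, a tight junction protein, read 9.49, 9.55 and 9.97 in siNELF-E cells, 8.09, 7.99 and 8.17 in siNELF-C cells and 8.66, 8.99 and 9.05 in control cells (3.01-fold, limma adjusted p = 0.00169). SPDEF, an ETS factor of luminal and secretory cells, read 8.92, 9.36 and 9.06 in siNELF-E cells, 7.41, 7.70 and 7.59 in siNELF-C cells and 8.17, 8.26 and 8.45 in control cells (2.92-fold, 0.00173). ERBB3, the kinase-impaired partner of HER2, was 2.86-fold higher (9.11 in siNELF-E, 7.60 in siNELF-C, 8.59 in control), and the secreted disulphide isomerase AGR2 2.46-fold. In CLDN4, SPDEF and ERBB3, control lay between the knockdowns. E-cadherin (CDH1) was 1.57-fold higher. GATA3, a defining luminal factor, was called at 0.60, while FOXA1 (0.39, adjusted p = 0.0367) and ESR1 (0.30, 0.125) were not called. PRLR, the prolactin receptor, was 1.74-fold lower. The keratins KRT8, KRT18 and KRT19 measured -0.22, -0.16 and 0.31 and were not called. In the fit of 15 arrays 3 members were called higher, without siNELF-C replicate 2 it was 5, and after quantile normalization 5 were higher and 2 lower. Both on 75th percentiles and with the covariate 4 were higher and 2 lower, with list medians of 0.21 and 0.22. CDH1 lost its call in the fit of 15 arrays (limma adjusted p = 0.0576), on 75th percentiles (0.44 on the log2 scale) and with the covariate (0.42). AGR2 lost its call in the fit of 15 arrays (limma adjusted p = 0.0709).

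Markers of other cell types were not called on the deposited values. There 0 of 10 basal, 0 of 17 mesenchymal, 0 of 10 endothelial and 0 of 12 leukocyte markers were called, with list medians of -0.24, -0.10, -0.12 and -0.15. Of these, 13 mesenchymal, 7 endothelial and 8 leukocyte markers had means below 3.891 in both groups. Of all clusters 12.7% were called in either direction. Other settings called up to 2 of a list, all lower in siNELF-E cells. With arrays centred on 75th percentiles these were 2 basal and 2 leukocyte markers, after quantile normalization 1 basal, with the covariate 2 basal and 1 mesenchymal, with no fold minimum 1 basal, and without siNELF-E replicate 1 they were 2 leukocyte markers. From exon-level medians 1 basal, 1 endothelial and 1 leukocyte marker were called.

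Oestrogen-induced genes went both ways, 5 of 27 higher and 5 lower (18.5% each, against 9.53% and 3.13% of all clusters; median 0.21). TFF3, a secreted trefoil peptide, read 8.06, 8.27 and 7.92 in siNELF-E cells, 5.74, 6.13 and 6.46 in siNELF-C cells and 6.92, 6.62 and 6.62 in control cells (3.93-fold higher, limma adjusted p = 0.00204). TSKU, a secreted proteoglycan, was 2.8-fold higher and the HSP90 co-chaperone FKBP4 1.85-fold. STC2, a secreted glycoprotein, read 7.39, 7.33 and 7.77 in siNELF-E cells, 9.05, 8.64 and 8.93 in siNELF-C cells and 9.64, 9.70 and 9.85 in control cells (2.59-fold lower, 0.00329), and CCND1, cyclin D1, was 1.59-fold lower. TFF3 and TSKU were thus above control in siNELF-E cells, and STC2 below control in both knockdowns. Without siNELF-E replicate 3, 3 members were called higher, and without siNELF-E replicate 1, 3 were called lower. The fit of 15 arrays called 3 higher and 3 lower.

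The extracellular matrix and TGF-beta response list held 9 members lower (23.7%) and 3 higher (7.89%) of 38 (median -0.15). The shares of all clusters were 3.13% and 9.53%. Beside TGFB2 and ID1 given earlier, ID3 was 1.86-fold lower, with means of 6.64 in siNELF-E, 7.53 in siNELF-C and 6.41 in control cells. ID3 lost its call in the fit of 15 arrays (limma adjusted p = 0.0807). ID2 did not go the same way, with 0.29 at gene level and 2.26 from its exon-level median. The TGF-beta co-receptor TGFBR3 was 2.63-fold lower, the fibril-associated collagen COL12A1 2.31-fold and thrombospondin 1 (THBS1) 2.18-fold. The integrin chains ITGA2 and ITGAV were 2.08- and 1.78-fold higher. The fit of 15 arrays called 6 members lower and 0 higher.

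Of 31 growth factor receptors and their feedback inhibitors, 7 (22.6%) were called lower and 3 (9.68%) higher (median -0.14). Of all clusters 3.13% were called lower and 9.53% higher, so only the lower share exceeded that of all clusters by much. FGFR4 read 6.84, 6.94 and 6.99 in siNELF-E cells, 5.07, 4.88 and 4.97 in siNELF-C cells and 5.55, 5.42 and 5.46 in control cells (3.86-fold higher, limma adjusted p = 0.000466). FGFR2 was the reverse, with 6.50, 6.51 and 6.57 in siNELF-E cells, 8.05, 7.71 and 7.86 in siNELF-C cells and 6.98, 6.85 and 6.90 in control cells (2.54-fold lower, 0.00134). For these receptors of one family, control lay between the knockdowns. The ERK phosphatase DUSP6, read in 2 of the lists, was 2.89-fold lower (3.47 in siNELF-E, 5.0 in siNELF-C, 4.60 in control), and the feedback inhibitors SPRED1 and SPRY2 were 2.24- and 2.17-fold lower. IGF1R was 1.93-fold lower, and the EGFR ligand TGFA 1.97-fold higher. ERBB2 measured -0.14 and was not called (adjusted p = 0.378).

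Of 31 immediate early genes, 4 were higher and 6 lower (median -0.02), against 9.53% and 3.13% of all clusters. The share lower thus exceeded that of all clusters by more than the share higher did. JUND (1.9-fold), KLF4 (1.69-fold) and NR4A1 (1.65-fold) were higher, and KLF10 (1.93-fold), FOSL1 (1.81-fold), KLF6 (1.69-fold) and CCN1 (1.55-fold) lower. With arrays centred on 75th percentiles 1 was called higher and 6 lower, and KLF4 and NR4A1 lost their calls. MYC, of which the promoter-proximal polymerase has been much studied, averaged 7.33 in siNELF-E cells, 7.35 in siNELF-C cells and 7.83 in control cells. Its difference was -0.02 with an interval at 95% of -0.25 to 0.21. The median of its exon-level probe sets measured 0.85 and did not pass either (adjusted p = 0.187).

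Interferon-stimulated genes had medians below control on every array of both knockdowns. The list median relative to control was -1.25, -1.10 and -1.18 on the siNELF-E arrays and -1.31, -1.50 and -1.30 on the siNELF-C arrays. Of 43 measured members, 6 were higher and 1 lower in siNELF-E cells, against 9.53% and 3.13% of all clusters, and the median difference was 0.05. SP110 and IFI35 were 1.71- and 1.65-fold higher and the RNA sensor RIGI 1.63-fold. IFI35, RIGI and SP110 lost their calls with arrays centred on 75th percentiles and in the fit of 15 arrays, where 0 members were called higher. With the covariate 1 member was called higher and 4 lower. IFI6 measured 0.35 and was not called (adjusted p = 0.188).

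Of 23 genes of the p53 response, 4 were higher and 4 lower (17.4% each, against 9.53% and 3.13% of all clusters; median -0.03). The counts turned to 2 higher and 7 lower with arrays centred on 75th percentiles and to 0 and 6 with the covariate. TP53I3, a quinone oxidoreductase, read 8.90, 8.96 and 8.71 in siNELF-E cells, 10.54, 10.47 and 10.41 in siNELF-C cells and 10.61, 10.66 and 10.60 in control cells (3.06-fold lower, limma adjusted p = 0.000773). It stayed close to control in siNELF-C cells alone. RRM2B, the p53-inducible ribonucleotide reductase subunit, was 1.79-fold lower. Cyclin G1 (CCNG1) was 1.87-fold higher, and MDM2, which targets p53 for degradation, 1.97-fold higher, though MDM2 lost its call without siNELF-E replicate 3 (adjusted p = 0.0501). CDKN1A (p21) averaged 7.39 in siNELF-E cells, 7.35 in siNELF-C cells and 6.49 in control cells. Its difference between the knockdowns was 0.04 with an interval at 95% of -0.21 to 0.29. Members called higher numbered 2 without siNELF-E replicate 3, and in the fit of 15 arrays 0 were called higher and 1 lower.

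Lists of metabolism and stress are set against 9.53% higher and 3.13% lower of all clusters. The shares higher and lower were 22.2% and 11.1% for hypoxia and glycolysis and 23.3% and 3.33% for oxidative phosphorylation. They were 18.5% and 3.7% for lysosome and autophagy and 16.1% and 3.23% for the unfolded protein and ATF4 responses. Outside hypoxia and glycolysis the lower shares were near that of all clusters. In the hypoxia and glycolysis list 6 of 27 were higher and 3 lower (median 0.27). NDRG1 (2.01-fold), pyruvate dehydrogenase kinase PDK1 (1.91-fold) and the glucose transporter SLC2A1 (1.81-fold) were higher, and PFKP and PFKFB3, which make and stimulate phosphofructokinase, were 2.14- and 2.09-fold lower. Of 30 oxidative phosphorylation genes, 7 were higher and 1 lower (median 0.34), among them the complex I subunits NDUFA5 (1.95-fold), NDUFB5 (1.85-fold) and NDUFA8 (1.68-fold). These 3 lost their calls in the fit of 15 arrays (adjusted p = 0.384, 0.0576 and 0.396) and with the covariate (0.17, 0.55 and 0.09 on the log2 scale), and NDUFA8 also after quantile normalization (0.52) and on 75th percentiles (0.53). The largest in that list, SDHC, rests on a single probe set at gene level (2.01), while its exon-level median was 0.55 and did not pass. Of 27 lysosome and autophagy genes, 5 were higher and 1 lower (median 0.36). The proton pump subunit ATP6V0D1 (2.24-fold) and the sialidase NEU1 (1.87-fold) were higher, and the autophagosome protein MAP1LC3B was 1.85-fold lower. Of 31 genes of the unfolded protein and ATF4 responses, 5 were higher and 1 lower (median 0.20), with SEL1L, of endoplasmic reticulum-associated degradation, 2.37-fold and DDIT3 (CHOP) 2.03-fold higher. That balance turned with scaling, to 3 higher and 4 lower after quantile normalization and 3 and 5 with arrays centred on 75th percentiles. With the covariate it was 2 and 6. On 75th percentiles the counts were 4 and 3 for hypoxia and glycolysis, 4 and 1 for oxidative phosphorylation and 3 and 2 for lysosome and autophagy. In the fit of 15 arrays 4 higher and 3 lower were counted for hypoxia and glycolysis, 2 and 0 for oxidative phosphorylation, 3 and 0 for lysosome and autophagy, and 2 and 1 for the unfolded protein and ATF4 responses.

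Of 28 factors of pausing and elongation, the target NELFCD included, 5 were higher (17.9%) and 1 lower (3.57%), against 9.53% and 3.13% of all clusters (median 0.05). MLLT3 and AFF1, of the super elongation complex, were 1.74- and 1.66-fold higher. POLR2A, the largest subunit of RNA polymerase II, averaged 6.89 in siNELF-E cells, 7.61 in siNELF-C cells and 7.38 in control cells (1.65-fold lower, limma adjusted p = 0.00482). The fit of 15 arrays called 2 higher and 0 lower, and centring on 75th percentiles 2 and 1. With each array's interquartile range as a covariate the balance turned, to 1 higher and 5 lower (median -0.24).

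The other lists held 1 to 4 called members each. Members higher and lower numbered 1 and 0 of 15 for antigen presentation, 1 and 0 of 14 for heat shock, 1 and 0 of 14 for cytosolic ribosomal proteins, and 1 and 1 of 26 for NF-kB and inflammatory genes. Cell cycle inhibitors and G0 genes had 1 higher and 2 lower of 17, apoptosis regulators 3 and 1 of 26, and polyamine metabolism 2 and 1 of 11. As shares these are 5.88% and 11.8% for cell cycle inhibitors, 11.5% and 3.85% for apoptosis and 18.2% and 9.09% for polyamine metabolism, against 9.53% and 3.13% of all clusters. The shares higher were 6.67% for antigen presentation and 7.14% each for heat shock and ribosomal proteins. NF-kB genes had 3.85% in each direction. The fit of 15 arrays called 0 in antigen presentation, heat shock and ribosomal proteins, 0 higher and 1 lower each in NF-kB genes and cell cycle inhibitors, and 2 and 0 each in apoptosis and polyamine metabolism. On 75th percentiles polyamine metabolism held 0 higher and 2 lower, and apoptosis 2 and 4. Apoptosis held 3 and 3 after quantile normalization and 2 and 5 with the covariate. With the covariate cell cycle inhibitors held 0 and 6, and antigen presentation and heat shock 0 and 2 each. The lower members of the cell cycle inhibitors and G0 list include MYBL2, which is not an inhibitor but the B-MYB subunit of the MYB-MuvB complex. MYBL2 was 2.03-fold lower, with means of 6.58 in siNELF-E, 7.60 in siNELF-C and 8.91 in control cells. CASP6, an effector caspase, was 2.55-fold higher, and SAT1, which acetylates spermidine and spermine for export, was 1.81-fold lower.

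**Figure D4:**
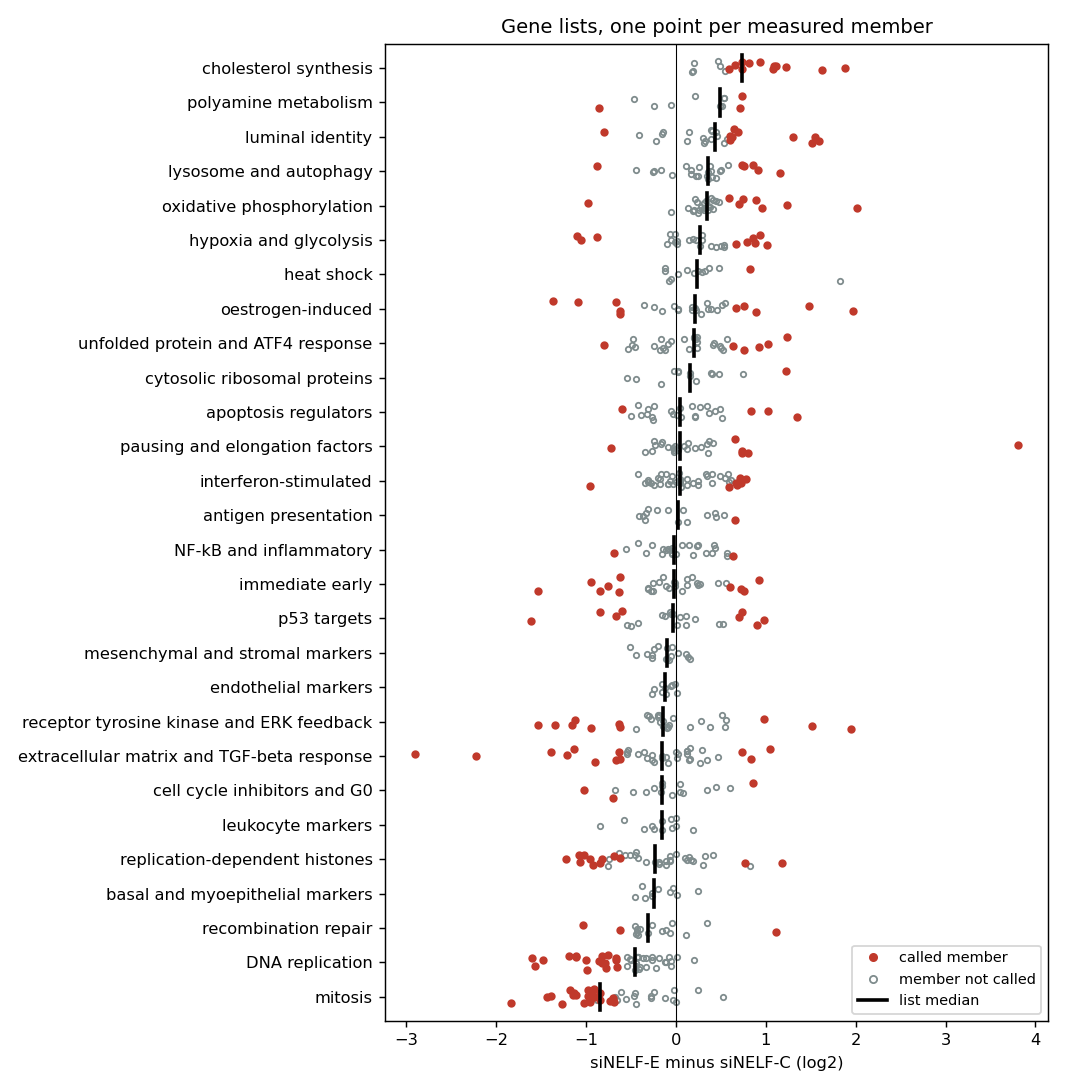
Log2 difference, siNELF-E minus siNELF-C, of each measured member (points) of 28 gene lists, ordered by list median (black bar). Filled points are called members and open points are not called. Cholesterol synthesis is at the top (median 0.74) and mitosis at the bottom (-0.85).

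The exon-level table holds 287329 probe sets on the same arrays. In siNELF-E cells 8376 (2.92%) were called higher and 2512 (0.874%) lower than in siNELF-C cells. These counts were unstable. They were 0 and 0 without siNELF-E replicate 2, 32 and 20 without replicate 3, and at most 3628 and 645 without any other single array. Over 13826 genes measured at both levels, the gene-level difference and the median difference of a gene's probe sets had a Spearman rank correlation of 0.875 and Pearson's r of 0.893 across genes, which share arrays and probes and are not replicates. From the medians of 16909 genes, 2372 were called higher and 755 lower (18.5% in either direction). Of 2103 of the genes measured at both levels and called at gene level, 1716 were called with the same sign from the medians and 1 with the opposite sign.

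Exon usage, meaning how far a single probe set departs from the rest of its gene, was called for 4620 of 153219 probe sets (3.02%) by limma's diffSplice, which on simulated data also called unchanged probe sets. With the spread taken from each probe set itself, 2 were called (0.00131%), while 21096 had an unadjusted p below 0.05. The first is probe set 3891281 of NELFCD. It averaged 10.86 in siNELF-E cells, 11.16 in siNELF-C cells and 10.52 in control cells, so it did not follow the fall of the gene in siNELF-C cells (relative difference -4.37, adjusted p = 0.0215). The second is probe set 2522795 of STRADB, a pseudokinase partner of LKB1, with 6.79 in siNELF-E cells, 7.33 in siNELF-C cells and 6.80 in control cells (-4.22, adjusted p = 0.0129). The exon-level median of STRADB read 6.61, 6.98 and 6.87 in siNELF-E cells, 3.01, 3.27 and 3.32 in siNELF-C cells and 6.08, 6.41 and 6.61 in control cells, and 16 of its 17 probe sets were higher in siNELF-E cells.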

How the data were processed

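T47D RNA was measured on Affymetrix human exon arrays. Per the labels' protocols, 1 ug of total RNA was depleted of ribosomal RNA before labelling. The deposited values are log2 robust multi-array average (RMA) levels for core exons, made in ArrayAssist on genome build hg18, per the labels; its version is not given in the sources used here. No pair of columns was identical. The number of arrays limits the precision.

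Names came from the platform annotation, updated through RefSeq: 14432 of 22011 clusters carried 1 symbol, 2408 several and 5171 were not listed. Only features with 1 symbol are named. The fit was limma 3.58.1 (lmFit, eBayes; R 4.3.3) on the 6 arrays, with Benjamini-Hochberg adjustment over all clusters, and was tested on simulated data. Exon usage covered genes above the 40th percentile with at least 3 probe sets. Genes without a cluster of their own, NELFE and NELFA among them, were fitted as medians of exon-level probe sets over 16909 genes, which is not the gene-level test.

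The comparison, the 28 gene lists and their members were chosen with earlier results of these data known. Named are the 15 largest differences in each direction among called genes with 1 symbol whose higher group mean reached the 40th percentile and whose groups did not overlap. From each list up to 6 called members in each direction by size, up to 2 uncalled members with the highest means, and from exon usage up to 4 probe sets in each direction followed; not all are shown. CCNB2, KIF11, DHCR7, IDI1, TM7SF2, NSDHL, FDPS, SREBF1, EBP, PMVK, GATA3, FOXA1, ESR1, KRT18 and STRADB were added after their values were seen. Alternatives were other scalings, other models and filters, the replicate number as a block and leaving out each array. Same-numbered arrays of the groups deviated from their means with correlations of -0.027, -0.005 and 0.081, so the numbers were not taken to pair them.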

Additional observations from a re-analysis of the deposited data

How the results depend on the processing

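The repeats are technical, 3 a group, and the siNELF-C arrays have a narrower range of values, so the count in each direction depends on scaling and on the model. Against 2098 clusters higher and 688 lower on the deposited values, the fit of 15 arrays called 790 and 351, centring on 75th percentiles 1167 and 1819, a covariate of each array's interquartile range 744 and 1245, a 2-fold minimum 689 and 218, and no fold minimum 3065 and 1246. Leaving out 1 array gave 1523 to 2049 higher and 563 to 692 lower. With replicate number as a replicate block, which is not shown to pair the arrays, 1913 and 612 were called, and it changed no call of the 121 other genes named in the text. The 179 called list memberships became 85 in the fit of 15 arrays and 61 with a 2-fold minimum. Of probe sets, 16505 were higher and 5369 lower in a model of 12 arrays without siNELF-B, 5519 higher after quantile normalization, 0 and 0 with the block, and 0 to 3628 higher and 0 to 645 lower with 1 array left out. Exon usage gave 1815 to 4796 probe sets with 1 array left out and 2 with the spread of each probe set, an alternative chosen after seeing the data. NELFE and NELFCD kept direction and call under every alternative run. NELFA changed sign to -0.25 (quantile normalization), -0.11 (median centring), -0.26 (75th percentiles), -0.07 (covariate) and between -0.08 and 0.16 with 1 array left out. CDKN1A did so at -0.18 (quantile normalization and 75th percentiles), -0.00 (medians), -0.04 to 0.08 with 1 array left out, -0.05 (exon-level medians) and -0.09 (covariate), SC5D at -0.04 (75th percentiles) and -0.27 (covariate), ECT2 at -0.01 (covariate) and MYC at 0.02 (without siNELF-E replicate 1) and 0.85 (exon-level median). The cause was not tested. Of the 121 genes, 29 lost their call in the fit of 15 arrays, 17 with the covariate, 8 on 75th percentiles and 3 after quantile normalization.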

Other observations

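Some genes differed strongly only from the exon-level table, because they have no transcript cluster with a symbol of their own or one that reads otherwise. They were picked for this after their values were seen, as genes with a difference of at least 4-fold in the exon-level median. STRADB measured 12.3-fold higher in siNELF-E cells than in siNELF-C cells from its 17 probe sets (log2 difference 3.62, SE 0.172, limma adjusted p = 5.39e-05), while the cluster that carries its symbol measured -0.06. ID2 read 4.15, 5.91 and 5.52 in siNELF-E cells, 1.66, 3.28 and 3.88 in siNELF-C cells and 1.95, 2.79 and 4.79 in control cells. Its log2 difference was 2.26 with a wide spread of repeats (SE 0.594, limma adjusted p = 0.0301), while its cluster measured 0.29. PSG9, a pregnancy-specific glycoprotein of the carcinoembryonic antigen family, read 5.52, 5.29 and 5.22 in siNELF-E cells, 7.86, 8.04 and 7.96 in siNELF-C cells and 6.03, 5.78 and 5.62 in control cells, so it was 6.1-fold lower (adjusted p = 0.000139). The siNELF-C arrays lay well above the control arrays and the siNELF-E arrays below them, without overlap.

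RNF103, an endoplasmic reticulum ubiquitin ligase, read 6.87, 7.24 and 7.30 in siNELF-E cells, 4.93, 4.85 and 4.98 in siNELF-C cells and 5.60, 6.09 and 6.47 in control cells (4.65-fold higher, adjusted p = 0.00036). AMN1 read 6.99, 7.30 and 7.46 in siNELF-E cells, 5.20, 5.11 and 4.98 in siNELF-C cells and 5.89, 5.74 and 5.84 in control cells (4.45-fold higher, 0.000462). In both the groups were separate, with control between the knockdowns. RALA, a Ras-like GTPase of exocytosis, averaged 7.0 in siNELF-E cells, 4.86 in siNELF-C cells and 6.73 in control cells (4.41-fold higher, 0.00277), and KYAT3, a kynurenine aminotransferase, averaged 6.66, 4.53 and 5.94 in the same order (4.36-fold higher, 0.00125). BDH2, a short-chain dehydrogenase, averaged 6.69 in siNELF-E cells, 4.08 in siNELF-C cells and 4.69 in control cells (6.11-fold higher, 0.00162).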
